A study of Mus musculus with 6 samples.

Results

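Interferon-response genes were examined in mouse embryonic stem cells that carried a short hairpin RNA against Chd8, a chromatin remodeller. The set was a list of 39 genes for RNA sensors, interferon signalling factors and interferon-stimulated proteins, matched to array probes by gene symbol, old or current. The list was meant as a check on a response to the hairpin RNA itself. Its rule uses gene symbols and no measured value, but it was drawn up with earlier results of these data known. Of the 39 genes, 38 had at least 1 probe on the array, with 79 probes of 45281 in all. Ifi44 had none. Testing was limited to probes detected (p under 0.01 against background) on 3 or more of the 6 arrays, which left 25 members among 9711 tested genes.

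The comparison was between 3 Illumina bead arrays of shChd8 cells and 3 of control cells. Both groups were grown in serum and leukemia inhibitory factor on embryonic fibroblast feeders made non-dividing with mitomycin C. Both received a pHYPER hairpin vector by electroporation, the shChd8 vector in one group and a control vector in the other, and puromycin from 24 h after transfection for 48 h. The sources used here do not give the content of the control vector, the cell line or the strain. A response common to both hairpin vectors would not show as a difference between the groups. Whether each array stands for its own culture is not stated, so the p-values rest on a spread between samples that may be technical only. The array positions of both groups lay apart on 1 slide, and the effects of position and hairpin cannot be told apart. Replicate numbers follow sample order and pair nothing.

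Cells recognise double-stranded RNA through cytoplasmic helicases such as RIG-I and MDA5, through endosomal TLR3 and through enzymes such as PKR and the oligoadenylate synthetases. The sensors act through IRF3 and IRF7 to switch on interferon genes, and secreted interferon then acts through its receptor, JAK kinases and a complex that contains STAT2 and IRF9 to raise the expression of antiviral effector genes. That complex binds the interferon-stimulated response element (ISRE) in promoters. Pluripotent stem cells are known for a weak interferon response, whereas fibroblasts, the feeder cells here, respond strongly.

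Chd8, the target of the hairpin, was lower in shChd8 cells. Its tested probe (ILMN_2703082) had normalized log2 intensities of 8.71, 8.64 and 8.36 on the shChd8 arrays, against 9.90, 9.97 and 10.02 on the control arrays. The groups did not overlap, and the log2 change was -1.39 (SE 0.15, n = 3 each, limma adjusted p = 0.00907). The arrays detected between 16482 and 17440 probes each, and array intensities correlated at 0.982 to 0.987 within shChd8, 0.975 to 0.984 within control and 0.954 to 0.977 across the groups. All levels below are normalized log2 intensities, which are compared between arrays for 1 probe and never between probes.

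The ISRE core was searched in RefSeq promoter windows (GRCm38.p6, 250 bases before to 50 after each gene start) as a pair of GAAA half-sites with any 2 bases between them, on either strand (TTTC half-sites when read from the other). It was present in 16 of 36 member promoters (44.4%), against 24.2% of the promoters of other interferon pathway genes and 3.44% of all 32851 promoters. The windows covered 31 of the 39 members. The second element searched, GAS (TTCNNNGAA, the same on both strands), was in 25% of member promoters, 15% of the other pathway promoters and 8.3% of all promoters. The stretches shown here are those of 6 members whose array values are described below and that carry the match upstream of the start. The capitals mark 1 match per gene. The windows of Isg15, Oas1a and Ifit3 held 3, 2 and 2 matches, and those of Isg15 and Oas1a overlap within the stretch shown. Each stretch is read along the strand of its gene, 5′ to 3′.
B2m, chr2:122147538-122147567, plus strand: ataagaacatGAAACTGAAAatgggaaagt
Gbp2, chr3:142620594-142620623, plus strand: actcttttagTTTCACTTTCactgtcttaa
Ifit3, chr19:34583363-34583392, plus strand: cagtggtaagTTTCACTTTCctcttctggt
Isg15, chr4:156200871-156200900, minus strand: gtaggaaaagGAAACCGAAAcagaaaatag
Oas1a, chr5:120907520-120907549, minus strand: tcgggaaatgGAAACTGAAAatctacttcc
Stat2, chr10:128270266-128270295, plus strand: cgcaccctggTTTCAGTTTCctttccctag
The marked matches begin 139 bases before the start of B2m, 59 before Gbp2, 156 before Ifit3, 72 before Isg15, 14 before Oas1a and 222 before Stat2. A match describes the letters only, and binding was not measured. Among these genes the log2 changes between shChd8 and control ran from 1.18 for B2m to -0.30 for Stat2, and Oas1a was not above background.

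Of the 25 tested members, 1 rose and none fell in shChd8 cells at an adjusted p under 0.05 over all 16732 tested probes. Among all tested genes 1.7% were called higher and 2.61% lower. Without adjustment, p was under 0.05 for 6 members that were higher and 2 that were lower, against 13.4% and 14% of all genes. The groups did not overlap for 5 members that were higher and 2 that were lower, against 14.6% and 18.2% of all genes. The median log2 change of the 25 was 0.25, with 17 of them above 0, and that of all genes was -0.02, with 48.2% above 0. Over 25 genes these counts are small, and whether they differ from the shares of all genes was not tested.

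**Figure D1:**
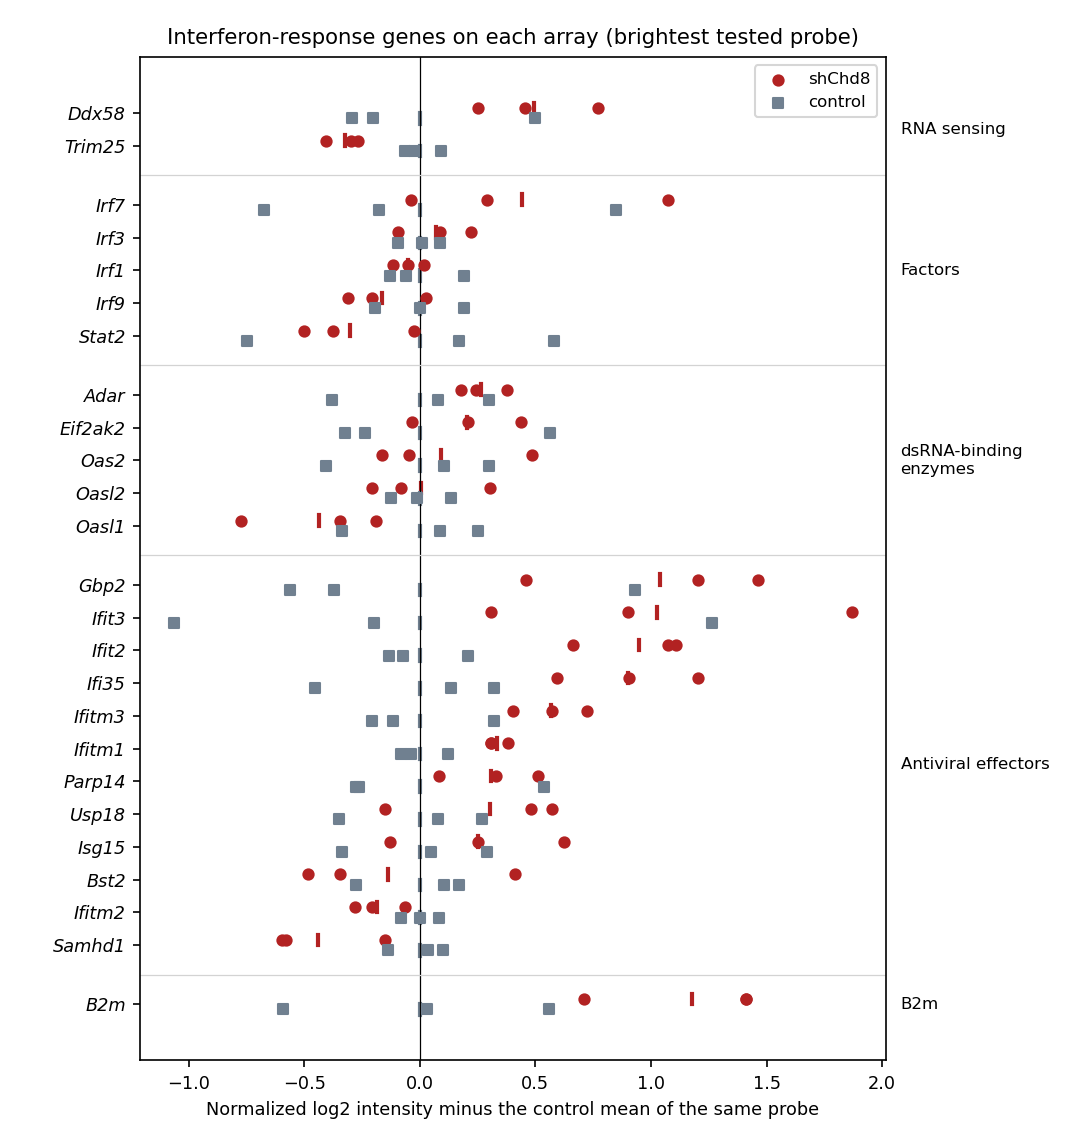
Normalized log2 intensity of the 25 tested interferon-response genes on each array, as the difference from the control mean of the same probe (x axis), by role (y axis). Circles are the 3 shChd8 arrays, squares the 3 control arrays and short lines the group means. Ifit2, B2m, Ifi35, Ifitm3 and Ifitm1 have all shChd8 arrays above all control arrays, and Samhd1 and Trim25 have them below.

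**Figure D2:**
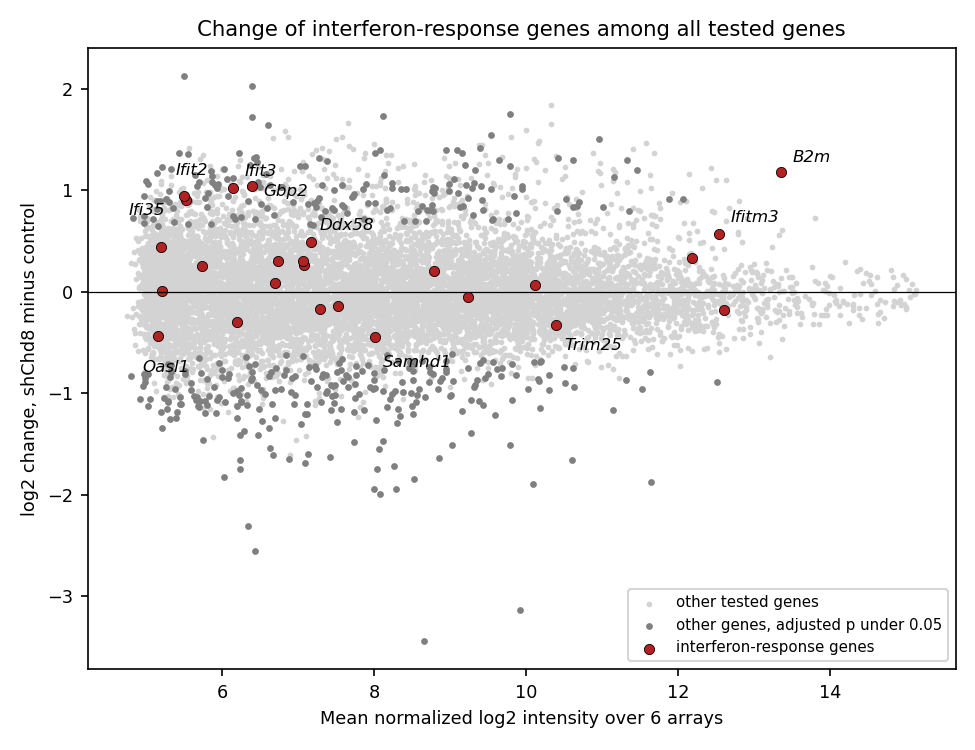
Log2 change between shChd8 and control (y axis) against the mean normalized log2 intensity over the 6 arrays (x axis) for the brightest tested probe of each of 9711 genes. The interferon-response genes, in red, lie between -0.44 (Samhd1) and 1.18 (B2m), within the span of all genes, -3.44 to 2.12.

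Of the 5 genes of RNA sensing, 2 were tested and neither was called. Without adjustment, p was under 0.05 for Trim25 alone, which was lower. Ifih1 (MDA5), Tlr3 and Dhx58 (LGP2, which modulates RIG-I and MDA5) had no tested probe. Ifih1 had 4.53, 4.34 and 4.43 on the shChd8 arrays and 4.31, 4.37 and 4.62 on the control arrays, none of them detected. Dhx58 was detected on none of the shChd8 arrays and on all 3 control arrays by 1 or the other of its 4 probes. Its brighter probe there (ILMN_1222039) had 4.67, 4.62 and 4.89 in shChd8 cells, against 5.47, 4.56 and 5.18 in control cells. Control replicate 2 was below every shChd8 array. Only 2 of the 3 control arrays detected that probe, so no bound on its fold is given.

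Ddx58 encodes RIG-I, the sensor of uncapped double-stranded RNA ends, and was detected on all 6 arrays. Its levels were 7.38, 7.18 and 7.70 in shChd8 cells, against 6.63, 7.43 and 6.72 in control cells. Control replicate 2 lay within the shChd8 range, and the log2 change of 0.49 did not pass the test (SE 0.24, limma adjusted p = 0.24). Trim25, the ubiquitin ligase that activates RIG-I, had 10.15, 10.26 and 10.29 in shChd8 cells and 10.53, 10.64 and 10.49 in control cells. All shChd8 arrays were below all control arrays, by a mean log2 change of -0.32 that did not pass (SE 0.14, limma adjusted p = 0.191).

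None of the 5 transcription factors passed the test or had an unadjusted p under 0.05, and for each of them the groups overlapped. Irf3, present before any interferon signal, had 9.99, 10.17 and 10.30 in shChd8 cells and 10.17, 10.09 and 9.99 in control cells. Its log2 change of 0.07 had an SE of 0.15 (limma adjusted p = 0.803). Irf7, which interferon induces and which amplifies the response, had 5.26, 6.04 and 4.93 in shChd8 cells and 4.79, 5.82 and 4.30 in control cells. In each group replicate 2 was the highest and replicate 3 the lowest for Irf7, and the difference of 0.44 between the group means was about the size of its SE of 0.41 (limma adjusted p = 0.532). Irf7 was detected on 2 shChd8 arrays and 1 control array.

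Stat2 and Irf9 encode parts of the complex that binds the ISRE. Stat2 had 6.31, 5.97 and 5.84 in shChd8 cells and 6.92, 5.59 and 6.51 in control cells, a log2 change of -0.30 (SE 0.32, limma adjusted p = 0.591). Irf9 had 7.06, 7.39 and 7.16 in shChd8 cells and 7.37, 7.17 and 7.56 in control cells, a log2 change of -0.16 (limma adjusted p = 0.58). The control arrays spanned the shChd8 arrays for Stat2, and the groups were interleaved for Irf9. Irf1, a factor that interferon gamma induces, had the smallest difference of the 5, -0.05 (limma adjusted p = 0.868). With arrays scaled to a common median, the signs turned for Irf1 (0.18) and Irf9 (0.084).

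Of the 5 tested enzymes that bind double-stranded RNA or belong to their families, none passed the test or had an unadjusted p under 0.05. Eif2ak2 encodes PKR, which shuts down translation when it binds double-stranded RNA. Its levels were 8.89, 9.12 and 8.65 in shChd8 cells and 8.44, 9.24 and 8.35 in control cells. Control replicate 2 was the highest of the 6 arrays, and the log2 change was 0.21 (SE 0.25, limma adjusted p = 0.651). Oas1a, an oligoadenylate synthetase that activates RNase L, was detected on no array: it had 4.39, 4.58 and 4.69 in shChd8 cells and 4.39, 4.61 and 4.48 in control cells. Oas3 was detected on 1 control array only. Oas2 (log2 change 0.09), the synthetase-like Oasl2 (0.01) and Oasl1 (-0.44), and the RNA editing enzyme Adar (0.27) were tested and had adjusted p-values between 0.244 and 0.989.

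The antiviral effectors held the one gene that passed and most of the largest differences. Ifit2, whose protein binds viral RNA and blocks its translation, rose in shChd8 cells. Its brighter probe (ILMN_2981167) had 6.12, 6.09 and 5.68 on the shChd8 arrays, against 4.88, 4.94 and 5.22 on the control arrays. All shChd8 arrays were above all control arrays, and the log2 change was 0.95 (SE 0.18, limma adjusted p = 0.0366), a fold of 1.93. Without background correction the log2 change was 0.32 (adjusted p = 0.0631), and with normexp correction 0.45. The probe was detected on all 3 shChd8 arrays and on 1 control array, so that it entered the test mainly through the group where it was higher. The second Ifit2 probe (ILMN_2981169) had 5.58, 5.60 and 5.30 in shChd8 cells and 5.33, 4.97 and 4.96 in control cells. The groups overlapped on that probe, with a log2 change of 0.41 (limma adjusted p = 0.181). With 1 array left out, the Ifit2 call was lost without shChd8 replicate 1 (adjusted p = 0.134), shChd8 replicate 2 (0.122), control replicate 1 (0.106) or control replicate 3 (0.0862). The Ifit2 promoter window held no ISRE core.

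Of the other Ifit genes, Ifit3 had 6.53, 7.50 and 5.94 in shChd8 cells and 5.43, 6.89 and 4.57 in control cells. Its difference of 1.03 was as large as that of Ifit2, but control replicate 2 was above 2 of the shChd8 arrays, and the SE was 0.58 (limma adjusted p = 0.301). Ifit1 was detected on no array, which leaves its difference unmeasured. Probes of Ifit3 may also bind the RNA of its near copy Ifit3b. Ifit3, Gbp2, Isg15 and Usp18 are described by array after their values were seen.

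Ifi35, an interferon-induced protein that binds other signalling factors, was higher on every shChd8 array. It had 5.98, 6.28 and 5.67 in shChd8 cells and 4.62, 5.39 and 5.20 in control cells. The log2 change of 0.90 missed the threshold (SE 0.24, limma adjusted p = 0.0692). Gbp2, a guanylate-binding protein that interferon gamma induces, had 7.07, 7.33 and 6.33 in shChd8 cells and 5.50, 6.80 and 5.31 in control cells. Control replicate 2 lay among the shChd8 arrays, and the log2 change of 1.04 did not pass (SE 0.41, limma adjusted p = 0.155).

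Isg15, a ubiquitin-like modifier, had 5.86, 6.23 and 5.48 in shChd8 cells and 5.66, 5.90 and 5.27 in control cells (log2 change 0.25, limma adjusted p = 0.544). Usp18, the protease that removes ISG15 from proteins and dampens receptor signalling, had 7.07, 7.16 and 6.43 in shChd8 cells and 6.85, 6.66 and 6.24 in control cells (log2 change 0.30, limma adjusted p = 0.469). For Isg15 and Usp18 the spread within each group was wider than the distance between the group means. The GTPase gene Mx1 and Rtp4 were detected on no array. Mx2 and Xaf1 were each detected on 1 control array.

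Interferon-induced transmembrane proteins stop virus entry, and their genes are also expressed in stem cells without interferon. Ifitm3 had 12.82, 12.97 and 12.65 in shChd8 cells and 12.05, 12.57 and 12.13 in control cells. The groups did not overlap, and the log2 change of 0.57 did not pass (SE 0.19, limma adjusted p = 0.108). Ifitm1 had 12.33, 12.40 and 12.33 in shChd8 cells and 11.98, 12.14 and 11.94 in control cells on its brightest probe (log2 change 0.33, limma adjusted p = 0.183). Ifitm2 differed by -0.18 (limma adjusted p = 0.462). The 3 genes are close in sequence, and how far their probes bind the RNA of each other was not tested.

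Samhd1 encodes an enzyme that degrades the nucleotides viruses need. It had 7.65, 7.63 and 8.08 in shChd8 cells and 8.09, 8.26 and 8.33 in control cells. All shChd8 arrays were below all control arrays, though shChd8 replicate 3 and control replicate 1 almost met, and the log2 change of -0.44 did not pass (SE 0.17, limma adjusted p = 0.159). Of the other effectors, Parp14 differed by 0.31 (limma adjusted p = 0.465) and Bst2, whose protein tethers budding virus, by -0.14 (limma adjusted p = 0.767, and 0.10 with median scaling). Rsad2 (viperin) was detected on 2 shChd8 arrays and no control array. It had 5.46, 5.22 and 4.94 in shChd8 cells and 4.77, 4.53 and 4.42 in control cells, and was not tested. As not every shChd8 array detected it, no bound on its fold is given. Parp9 was detected on 1 shChd8 array only.

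Of the surface and secreted members, B2m had the largest difference of all 25. It encodes beta-2 microglobulin, the light chain of every class I major histocompatibility complex (MHC) molecule. B2m had 14.17, 14.17 and 13.47 in shChd8 cells and 12.79, 13.32 and 12.17 in control cells. The groups did not overlap, with shChd8 replicate 3 just above control replicate 2, and the fold of 2.26 (log2 change 1.18, SE 0.31) missed the threshold (limma adjusted p = 0.067). Its second tested probe gave 1.21 (limma adjusted p = 0.0717). Without control replicate 2 the brighter probe passed, with a log2 change of 1.46 (adjusted p = 0.038). It also passed without background correction (adjusted p = 0.022), and it was 0.32 (adjusted p = 0.828) in the fit with a feeder covariate described below. The chemokine Cxcl10 was detected on 2 shChd8 arrays and no control array, with 5.19, 5.25 and 4.58 in shChd8 cells and 4.69, 4.70 and 4.73 in control cells on that probe. It was not tested.

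The 13 members with a probe but no tested one divide by detection. Of these, 6 were detected on no array (Ifih1, Ifit1, Mx1, Oas1a, Rtp4 and Tlr3), 3 on more shChd8 than control arrays (Cxcl10, Rsad2 and Parp9) and 4 on more control than shChd8 arrays (Dhx58, Mx2, Oas3 and Xaf1). Over all 38 members, detection by any probe came to 77 gene-by-array cases on the shChd8 arrays and 74 on the control arrays. A probe that is not detected sets only an upper bound on its RNA, and a weak probe and a low RNA level cannot be told apart.

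Several members had probes that did not move together. Of the 8 genes with more than 1 tested probe, Ifitm1 was the clearest case. Its second probe (ILMN_1214071) had 10.75, 11.61 and 11.27 in shChd8 cells and 11.64, 11.71 and 12.02 in control cells, a log2 change of -0.58 (limma adjusted p = 0.161), against 0.33 on the brightest probe. Both probes separated the groups completely, in opposite directions. The remaining tested Ifitm1 probe gave -0.46 (limma adjusted p = 0.287).

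Irf9 and Adar also held probes of both signs. The second Irf9 probe (ILMN_2636339) had 5.94, 5.82 and 5.24 in shChd8 cells and 4.88, 4.83 and 5.30 in control cells, a log2 change of 0.67 (limma adjusted p = 0.115). It was detected on 3 shChd8 arrays and 1 control array. The other tested Adar probes gave -0.46, -0.11 and -0.52, against 0.27 on the brightest. Both B2m probes, both Ifit2 probes, both Trim25 probes and all 4 Irf1 probes kept 1 sign each. Over all 39 tested probes of members 21 were above 0 and 1 was called, against 3.68% of all tested probes.

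**Figure D3:**
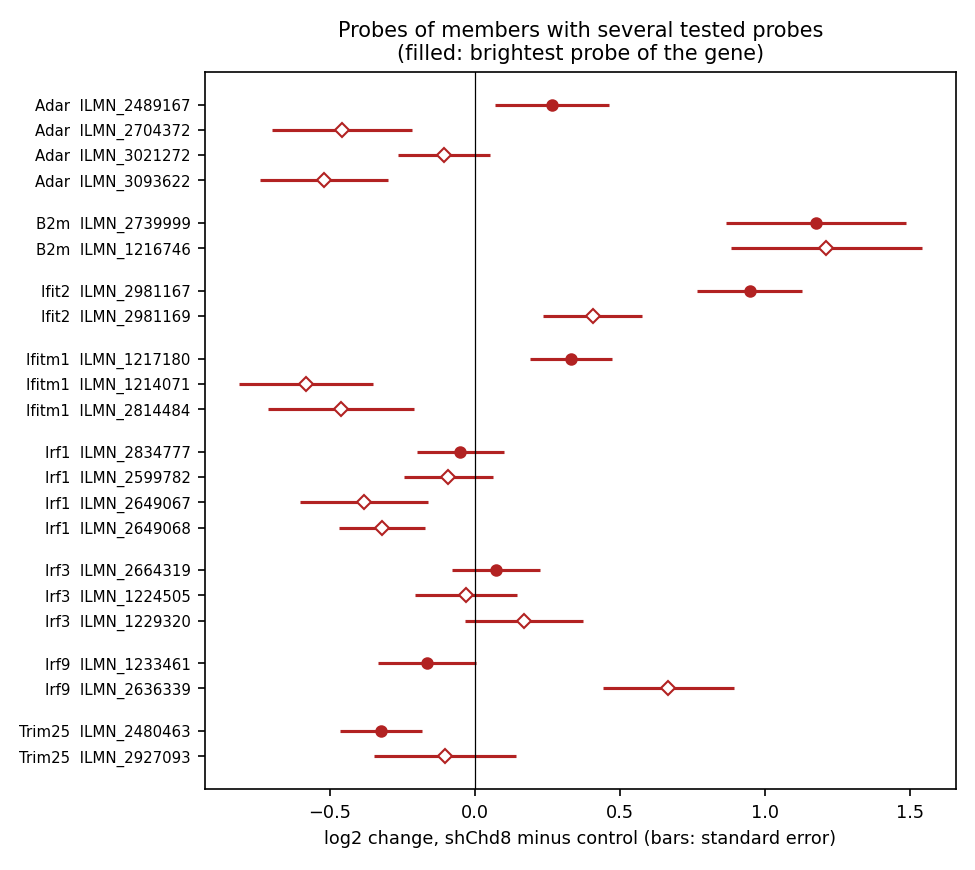
Log2 change between shChd8 and control (x axis, bars: standard error) for each tested probe of the 8 members with several (y axis). Filled circles are the brightest probe of a gene. The probes of Ifitm1, Irf9, Adar and Irf3 lie on both sides of 0, and those of B2m (1.18 and 1.21) and Ifit2 (0.95 and 0.41) lie to the right.

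The members varied between arrays of 1 group more than other genes did. The median SD within a group was 0.348 (log2) over the 25 members and 0.217 over all tested genes. Replicate 2 was the highest array of its group for 17 of 25 members in shChd8 cells and for 16 of 25 in control cells. For 14 members (56%) it was the highest in both groups, against 13.5% of all tested genes. For 7 members, B2m, Gbp2, Ifit3, Irf7, Irf1, Eif2ak2 and Isg15, replicate 3 was also the lowest in both groups, which held for 5.09% of all genes. The numbers follow sample order, and whether arrays of the same number share a source is not stated and was not tested. Replicates 2 and 3 were picked for these counts after the values were seen, so the shares are a description and test nothing. The median deviation of the 25 members from their probe means was 0.07, 0.24 and -0.06 on the shChd8 arrays and -0.21, 0.17 and -0.26 on the control arrays. Control replicate 2 was thus at the level of the shChd8 arrays, and without it 3 members were called, Ifit2, B2m and Gbp2. That omission was singled out after the values were seen. Over all omissions of 1 array, 0 to 3 members were called.

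Feeder fibroblast markers were measured beside these genes, since the cells grew on feeders and feeder RNA may be part of each sample. Which cells the marker RNA came from was not tested. Of 30 markers, 23 were tested and 22 of these were above 0, against 48.2% of all genes. In shChd8 cells 2 markers rose, against 1.7% of all genes called higher. They were Fbln2 (log2 change 1.13, limma adjusted p = 0.0376) and Tagln (1.06, limma adjusted p = 0.042). The median log2 change of the 23 was 0.90, with a range from -0.02 (Thy1) to 1.42 (Col1a1). Without adjustment, p was under 0.05 for 12 of the 23 that were higher and for none that was lower, against 13.4% and 14% of all genes. With 1 array left out Fbln2 lost its call in 4 of 6 cases (adjusted p up to 0.133, without shChd8 replicate 1), and Tagln in 5 (up to 0.142, also without shChd8 replicate 1). The median deviation of the markers was 0.93, 0.54 and -0.05 on the shChd8 arrays and -0.18, -0.34 and -0.85 on the control arrays, so that the groups did not overlap. In bulk RNA, fewer or more cells of a type and less or more RNA per cell cannot be told apart.

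Neither the feeder markers nor the interferon-response genes all shared 1 array order. Replicate 2 was the highest in both groups for 30.4% of the 23 tested markers, against 56% of the members and 13.5% of all genes. Collagen gene Col1a1 had 8.91, 7.59 and 7.55 in shChd8 cells and 7.38, 6.92 and 5.47 in control cells, with replicate 1 the highest in both groups. Decorin (Dcn) had 11.28, 11.41 and 9.59 in shChd8 cells and 9.79, 10.50 and 8.17 in control cells, the order of Ifit3 and Gbp2. Twist2, Pdgfra, Prrx1 and Thy1 had that order too, which makes 5 of the 23 markers (21.7%). The share was 28% of the members and 5.09% of all genes. The markers named here were picked for their order after their values were seen.

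With the feeder marker median of each array as a covariate, the median log2 change of the members was 0.033, with 14 of 25 above 0. The change of Ifit2 was 0.81 (adjusted p = 0.489), that of Gbp2 0.24 and that of Ifit3 -0.092 (adjusted p = 0.983), and that of H2-D1, described below, 0.50 (adjusted p = 0.678). No gene of the array was called in that fit, which spends 1 of few degrees of freedom on a covariate that itself differs between the groups. The part of feeder RNA in the differences of the members was not tested beyond this fit. The 10 embryonic stem cell markers were all tested and none had an unadjusted p under 0.05, with a median log2 change of -0.07. Of 8 immune cell markers with a probe, 4 were tested and none was called (1, Cd3e, was lower at an unadjusted p under 0.05), and Ptprc, the defining marker CD45, was detected on no array. The tested immune markers Lyz2 and Adgre1 were not detected on replicate 2 of either group, and the median deviation of the 4 was 0.74, -0.46 and 0.52 on the shChd8 arrays and 0.26, -0.65 and -0.16 on the control arrays.

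**Figure D4:**
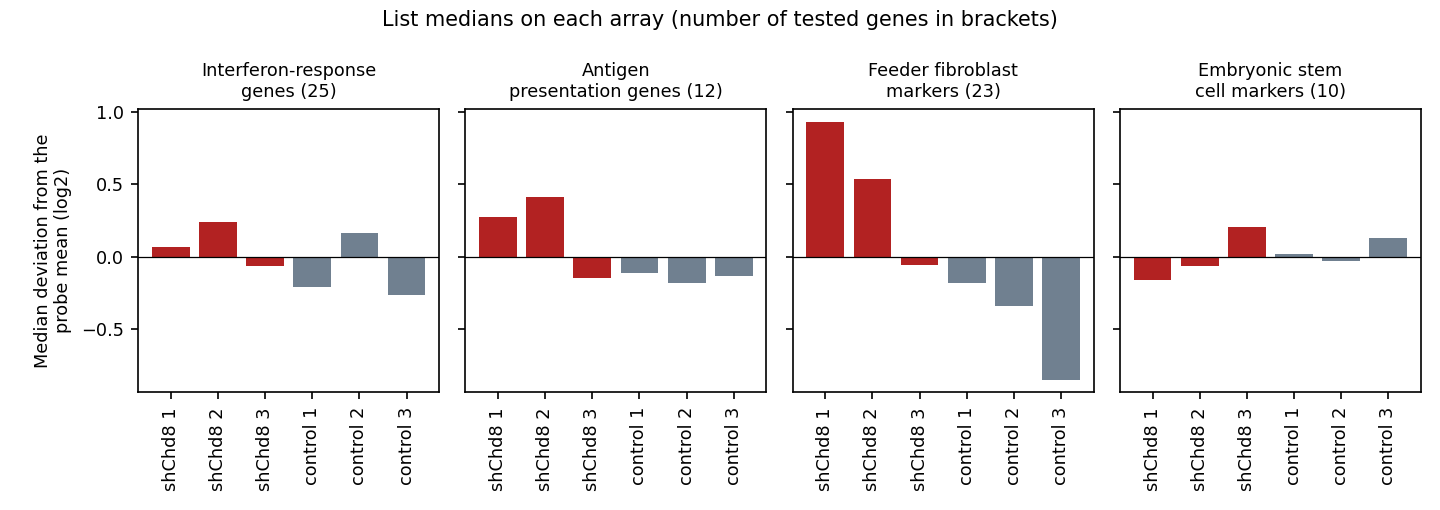
Median deviation of the tested genes of a list from their probe means (y axis, log2) on each array (x axis), with shChd8 in red and control in grey. Feeder markers separate the groups, and the interferon-response genes do not: control replicate 2 is at 0.17, above shChd8 replicates 1 and 3.

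Of 9 interferon genes listed, 8 had a probe and none was tested. Of these, 6 were detected on no array, Ifnb1, the first interferon made after RNA sensing, among them. Ifna1 was detected on 2 shChd8 arrays and 1 control array, and Ifne on 1 shChd8 array only. Ifnar1, a chain of the receptor for type I interferon, was detected on no array, and Ifnar2, the other chain, on 2 shChd8 arrays and 1 control array. Both chains of the interferon gamma receptor and both of the type III receptor were tested.

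The other genes of the pathway were taken from 5 lists with 127 genes, of which 68 were tested. Of these 1 rose and 1 fell, against 1.7% and 2.61% of all tested genes, and the median log2 change was 0.04. When a call on any probe counted, 2 rose (H2-D1 and a second probe of Ifngr2) and 3 fell (Ifnlr1, and second probes of Ago2 and Psmb10), against 2.12% and 3.05% of all genes. For the members that rule gave 1 and 0. The called Ifngr2 probe gave a log2 change of 0.74 (limma adjusted p = 0.0399). The brightest Ifngr2 probe went the other way, with -0.29 (limma adjusted p = 0.273), and the remaining tested probe gave 0.49 (limma adjusted p = 0.221). H2-D1, a class I MHC heavy chain that pairs with B2m, rose. It had 12.23, 12.20 and 11.49 in shChd8 cells, against 10.68, 11.14 and 10.19 in control cells. The groups did not overlap, and the fold was 2.46 (log2 change 1.30, SE 0.28, limma adjusted p = 0.047). Probes of class I genes can bind the RNA of other class I genes, so that the gene is uncertain. A second H2-D1 probe gave 1.39 (limma adjusted p = 0.041). The H2-D1 call was lost without control replicate 1 (adjusted p = 0.111), control replicate 3 (0.121), shChd8 replicate 1 (0.152) or shChd8 replicate 2 (0.146).

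Ifnlr1, the receptor chain for type III interferon, fell. It had 5.62, 5.57 and 5.91 in shChd8 cells, against 7.00, 6.31 and 6.72 in control cells, a log2 change of -0.98 (SE 0.21, limma adjusted p = 0.0435). All shChd8 arrays were below all control arrays on that probe. On a second tested Ifnlr1 probe the groups overlapped, with a log2 change of -0.44 (limma adjusted p = 0.266). When each array was left out in turn, the Ifnlr1 call held only without control replicate 2 (adjusted p = 0.0291). The other omissions gave 0.0509 to 0.144. Il10rb, the chain that pairs with Ifnlr1, had 5.82, 5.86 and 5.70 in shChd8 cells and 4.95, 5.36 and 4.57 in control cells. Its change of 0.83 had the opposite sign to that of Ifnlr1 and did not pass (limma adjusted p = 0.0606). The Il10rb probe was detected on 3 shChd8 arrays and 1 control array. It entered the test mainly through the group where it was higher, and its change rests partly on undetected control values. The list of receptors, kinases and regulators had 10 tested genes, 5 of them above 0, with a median of -0.10.

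Antigen presentation genes had a median log2 change of 0.33 over 12 tested genes, 8 of them above 0. Without adjustment, p was under 0.05 for 6 of the 12 that were higher and 1 that was lower, against 13.4% and 14% of all genes. Tap1, a subunit of the peptide transporter that loads class I molecules, was detected on all 3 shChd8 arrays and no control array. It was at least 1.54-fold higher in shChd8 cells. Tap1 entered the test only through the group where it was higher. Its fitted log2 change of 1.07 (limma adjusted p = 0.063) rests on control values that were not detected. With Tap1 at that bound the median of the list stayed 0.33. Psmb10, a subunit of the immunoproteasome, went the other way, with 8.97, 9.45 and 8.83 in shChd8 cells and 9.81, 10.25 and 9.90 in control cells. All shChd8 arrays were below all control arrays, and the log2 change of -0.90 missed the threshold (limma adjusted p = 0.0517).

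Among 18 other interferon-stimulated genes, 14 were above 0 with a median of 0.19 and none was called. At an unadjusted p under 0.05, 4 of the 18 were higher and 1 was lower, against 13.4% and 14% of all genes. The highest was the chemokine Ccl2 at 1.35 (limma adjusted p = 0.192), with 9.00, 9.65 and 7.84 in shChd8 cells and 7.33, 8.66 and 6.44 in control cells, again with control replicate 2 among the shChd8 arrays. The lowest was the synthetase gene Oas1g at -0.81 (limma adjusted p = 0.0532), with 7.33, 7.82 and 7.87 in shChd8 cells and 8.31, 8.62 and 8.52 in control cells. All shChd8 arrays were lower for Oas1g, whose probes may bind other Oas1 genes. Over the 18 genes the groups did not overlap for 2 that were higher and 1 that was lower, against 14.6% and 18.2% of all genes.

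The 16 tested genes of RNA sensing adaptors, kinases and factors had a median of 0.09 and no call. Without adjustment, p was under 0.05 for 3 of them that were higher and for none that was lower, against 13.4% and 14% of all genes. They ran from Nlrx1, an inhibitor of mitochondrial antiviral signalling (-0.39, limma adjusted p = 0.371), to the factor gene Irf2 (1.05, limma adjusted p = 0.108). The 12 tested genes of RNA interference, the pathway that processes hairpin RNAs, had a median of -0.15 and 1 above 0. None was called. At an unadjusted p under 0.05, 1 gene was higher (Prkra) and 1 lower (Ago2), against 13.4% and 14% of all genes. They ran from the slicer Argonaute gene Ago2 (-0.56, limma adjusted p = 0.0955) to the Dicer partner gene Prkra (0.59, limma adjusted p = 0.146).

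**Figure D5:**
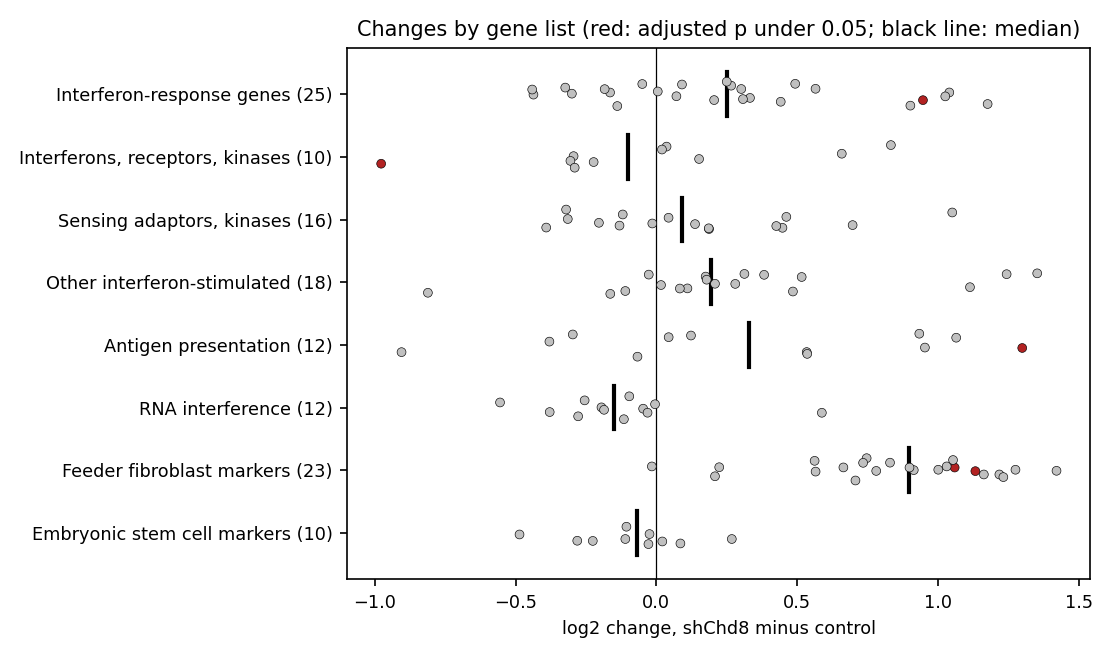
Log2 change between shChd8 and control (x axis) of each tested gene by list (y axis, number of tested genes in brackets), with black lines at the medians and genes past the adjusted p threshold in red. The median is 0.25 for the interferon-response genes and 0.90 for the feeder markers, and the called genes are Ifit2, H2-D1, Ifnlr1, Fbln2 and Tagln.

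The tested members were also set side by side by the presence of an ISRE core, as a description with no test. The 10 tested members with a match had a median log2 change of 0.37, with a range from -0.30 to 1.18 and 7 above 0. The 12 with a promoter window and no match had a median of 0.04, with a range from -0.44 to 0.95 and also 7 above 0. The ranges overlapped, and the called member, Ifit2, was among those with no match. Of 9 untested members with a window, 6 held a match, Ifit1 and Oas1a among them.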

How the data were processed

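Total RNA of 6 samples was labelled as cRNA and read on Illumina bead arrays, 1 per sample. The deposited table holds intensity per probe, neither background subtracted nor normalized, and a detection p-value, per the file headers. The submitters' processing notes name GenomeStudio, with no version. The authors' deposited normalized intensity (column medians 112.1 to 112.2) kept each array's rank order and served as an alternative.

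The analysis used limma 3.58.1 in R 4.3.3. Intensity was background corrected and quantile normalized with neqc (offset 16, negative controls inferred from the deposited detection p-values) and put on the log2 scale. Probes with a detection p under 0.01 on at least 3 of 6 arrays were tested with lmFit and eBayes, two-sided and without covariates, with Benjamini-Hochberg adjustment over all tested probes. A gene was represented by its brightest tested probe and called at an adjusted p under 0.05. A fold given as "at least" divides the brighter group's mean by a floor for the undetected group, the lowest detected value of each array or the probe's value if that is larger, averaged over arrays. Such a fold is given only where every array of the brighter group detected the probe. An exact permutation test of 3 against 3 arrays cannot go below 0.1, so none was used.

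Of 45281 probes, 34885 had 1 symbol in the platform annotation, 18 several and 10378 none. Symbols were updated through RefSeq (GRCm38.p6). The annotation names no build, so probes have no coordinates here, and probe sequences were not used here. Promoter sequences are RefSeq's.

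Members and lists were chosen with earlier results of these data known. Array values are given for called members, members with separate groups and an unadjusted p under 0.05, and fixed pathway genes. Of the other lists, called genes and the highest and lowest are named. Scripts were tested on simulated data. The 17 alternatives changed background correction, normalization, filter, moderation, probe choice, a feeder covariate or the arrays used.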

Additional observations from a re-analysis of the deposited data

How the results depend on the processing

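No paired analysis was possible because the labels give no replicate numbers. The 1 called member became 3 with normexp background correction (Ifit2, B2m and Ifitm3), 3 with trended moderation, 2 without background correction or with the deposited normalized values (B2m and Ifitm3), 5 with median scaling, and 0 without a filter, unmoderated or with the feeder covariate. Leaving out 1 array gave 0 to 3. The 2 called genes of the other pathway lists became 8 with normexp, 6 without background correction or with deposited values, 9 with median scaling, 4 with the stricter filter, 10 with trended moderation, 5 with any probe and 0 without a filter, unmoderated or with the covariate, and 0 to 5 with 1 array left out. Over all genes, 418 calls became 1091 with normexp, 1179 without background correction, 1164 with trended moderation, 690 with the stricter filter, 216 without a filter, 13 unmoderated, 0 with the covariate and 14 to 564 with 1 array left out. Median scaling shifted the median of all probes to 0.18 and gave 1150 calls, 993 higher and 157 lower, against 165 and 253. The member median moved beyond its spread with the covariate only (0.033), and was 0.08 to 0.37 with 1 array left out. Chd8 missed the threshold unmoderated (-1.39, adjusted p = 0.061) and with the covariate (-1.58, adjusted p = 0.249), and ran from -1.47 to -1.29 with 1 array left out. Ifit2 had an adjusted p of 0.0587 without a filter. With the stricter filter Ifit2 was not tested and the 1 called member was B2m (adjusted p = 0.0481). The covariate fit lowered B2m to 0.32, Gbp2 to 0.24 and H2-D1 to 0.50. Over 416 member results by alternative, 371 kept direction and side of the threshold, 9 lost and 15 gained the call, and 21 turned sign. Those were, with median scaling, Bst2 (0.10), Irf1 (0.18) and Irf9 (0.084), with the covariate Bst2 (0.61), Eif2ak2 (-0.13), Ifit3 (-0.092), Irf7 (-0.24), Isg15 (-0.26), Oasl1 (0.026) and Usp18 (-0.41), and with another probe Adar (-0.52), Ifitm1 (-0.58) and Irf9 (0.67). With 1 array left out they were Oas2 (lowest -0.11, highest 0.24), Oasl2 (-0.14 to 0.11), Irf1 (-0.11 to 0.046), Bst2 (-0.41 to 0.035) and Irf3 (-0.0034 to 0.16). Apart from the stricter filter and the omissions, which change what is tested, the cause was not tested. The members that turned sign included genes detected on all 6 arrays, such as Bst2, Irf1, Irf3 and Irf9. They also included genes detected on fewer arrays, such as Irf7 and Oasl1.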
